A study of Homo sapiens with 3 samples.

Results

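NDUFV3 is 1 of 13 promoters edited in the human embryonic kidney line HEK293T. It took 11 positions to hold 80% of its unedited ends, against 2 to 8 positions at each of the other targets. That count depends on depth, and SOCS1, IRF1, TXNRD2 and EDEM2 had 4 to 53 unedited ends each. By span NDUFV3 was not the widest. The middle 80% of unedited ends covered 43 bases at NDUFV3, 81 at C19orf43, 44 at IRF1 and 3 to 25 at the others. NDUFV3 was taken as every capped RNA 5′ end listed for it on the plus strand of chromosome 21, which came to 5518 of 131949 ends. Of these, 4705 carried a deletion (MUT) and 813 did not (WT), so a deletion was read in 85.3% of the listed ends (Wilson 95% interval 84.3 to 86.2%). That is not the share of alleles that were edited. MUT and WT ends came from the same transfected HEK293T cultures. All cultures had received Cas9 protein with 1 guide RNA per target in a pair of transfection rounds, no promoter drove the nuclease, and no untransfected culture is analysed here. A WT end is therefore RNA from an unedited allele, or from an allele whose edit was not read, in a treated culture. Both CRISPR-Cap libraries were deposited as 1 pooled list, so no value below has a replicate error. Intervals cover counting error and, for matched differences, the spread between deletions. If a line is a PCR read and not a molecule, the lines are not independent and the intervals are too narrow. "Lower" and "higher" are used of differences whose 95% interval excluded 0.

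NDUFV3 encodes an accessory subunit of mitochondrial complex I, the enzyme that passes electrons from NADH into the respiratory chain. Human promoters without a strong TATA box often start RNA at many nearby positions. RNA polymerase II commonly starts on a purine that follows a pyrimidine, so the bases around a start affect how often it is used, and a sequence downstream of a start can also contribute. CRISPR-Cap ligates an RNA oligonucleotide to the formerly capped 5′ end and reads through the edited sequence, so that each line gives a start and an allele. The series uses such editing to ask how promoter motifs set the position of initiation.

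The most used WT start, called the main start or position 0 here, was at chr21:42893311-42893311 (hg38, plus strand). It lies in exon 1 of NDUFV3, which GENCODE release 29 gives as chr21:42893265-42893381, in the 5′ untranslated part. The start codon occupies chr21:42893334-42893336, so an RNA from the main start has a 23-base 5′ leader. The RefSeq gene start, chr21:42893309-42893309, is 2 bases upstream of the main start. The targeted sequence and the 8 deletions that each made up at least 2% of the MUT ends are printed because all later comparisons turn on what they remove. The first line holds the start codon in capitals within chr21:42893320-42893349 of the plus strand, 5′ to 3′. In the other lines capitals mark the deleted bases in the same window, as placed in the deposited list. The sequence was taken from GENCODE and RefSeq transcripts and promoters of hg38.
target site: ccgctgtcaccgccATGgctgccccgtgtt
15-base deletion 1: ccGCTGTCACCGCCATGgctgccccgtgtt
9-base deletion 2: ccgctgtcaccGCCATGGCTgccccgtgtt
14-base deletion 3: ccgctgtcaCCGCCATGGCTGCCccgtgtt
6-base deletion 4: ccgctgtcaccGCCATGgctgccccgtgtt
1-base deletion 5: ccgctgtcaccgccaTggctgccccgtgtt
2-base deletion 6: ccgctgtcaccgccaTGgctgccccgtgtt
1-base deletion 7: ccgctgtcaccgccAtggctgccccgtgtt
4-base deletion 8: ccgctgtcaccgccaTGGCtgccccgtgtt

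Deletions at NDUFV3 centred on the start codon. With deletions placed as deposited, at least 1 base of the ATG was missing from 95.1% of the MUT ends (94.5 to 95.7%). The base most often missing, 24 bases downstream of the main start, was absent from 82.1%. Of the distinct deletions, 50.4% fit equally well at a higher coordinate, so these shares depend on placement, which the interval does not cover. How many ends lack an ATG in the joined sequence was not counted. There were 270 distinct deletions with a median length of 9 bases weighted by ends (quartiles 5 and 15, longest 95). Losses of 10 or more bases accounted for 45.3% of the MUT ends, 3 to 9 bases for 38.0%, and 1 or 2 bases for 16.6%. The 8 printed deletions held 51.4% of the MUT ends, led by deletion 1 with 696 ends, and 84 deletions were seen in 1 end each. As placed, all 8 remove part or all of the start codon, and they keep at least 11 bases from the main start on. With deletion 8 the joined sequence still reads ATG, since that deletion fits equally well 2 bases downstream, past the start codon.

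**Figure D1:**
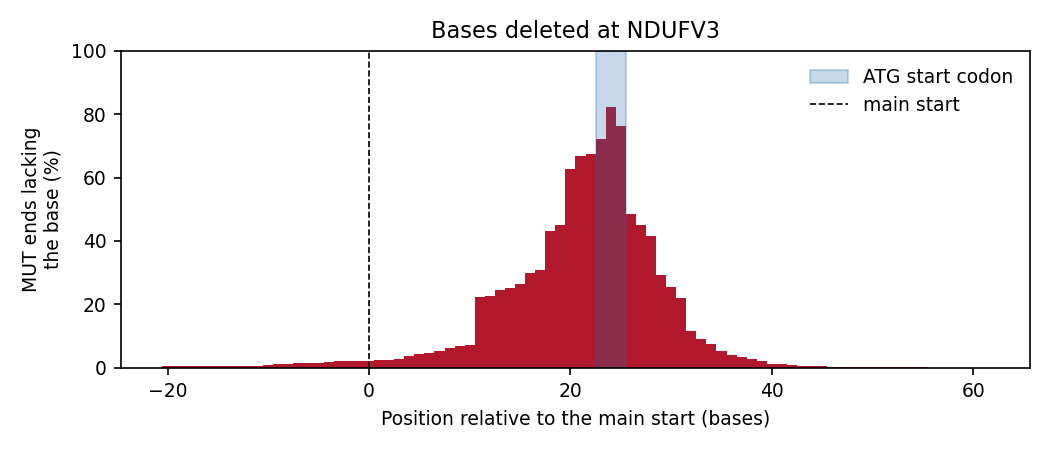
Percent of the 4705 MUT ends that lack each base, by position relative to the main start in bases, with deletions placed as deposited. Loss peaks 24 bases downstream, inside the shaded ATG, at 82.1%.

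The bases around the starts discussed most are given in windows of 13 bases, with the first base of the RNA in capitals. They show that only some of the used starts have the usual pyrimidine then purine.
start -39: gcggctGttcagg
start -10: gctgctGtggccc
start -4: gtggccCtgcttg
start -2: ggccctGcttggt
start 0: ccctgcTtggtgc
The starts at -39, -10 and -2 are a G after a T. The main start is a T after a C, and the start at -4 is a C after a C. Pyrimidine then purine starts held 62.9% of the MUT ends and 51.9% of the WT ends, all ends counted. The WT share is also the value by which the counting of positions was chosen, so it is not an independent result. The bases given for each start rest on the same choice.

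The most used starts at NDUFV3 were at -40 and -39 and at the main start, and the most used position was a different one in MUT and WT ends. Among MUT ends, the start at -39 was the most used with 1537 ends (32.7%, 31.3 to 34.0%), the start at -40 had 600 ends (12.8%), and the main start had 402 (8.54%, 7.78 to 9.38%). Among WT ends, the main start had 197 ends (24.2%, 21.4 to 27.3%), the start at -39 had 187 (interval 20.2 to 26.0%) and the start at -40 had 70 (8.61%). The intervals of the main start and the start at -39 overlapped in WT ends, so their order there is not resolved at this depth. A start at -39 gives a leader of 62 bases in unedited RNA.

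The MUT ends occupied 79 positions and the WT ends 54. In both sets 3 positions held at least 50% of the ends, and 80% of the ends took 13 positions in MUT and 11 in WT. The middle 80% of the ends spanned 44 bases in MUT (-43 to 0) and 43 bases in WT (-40 to +2). The median end was at -39 in MUT and at -4 in WT. The number of positions depends on depth, which was larger for MUT, and these figures are not matched for the deletion.

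**Figure D2:**
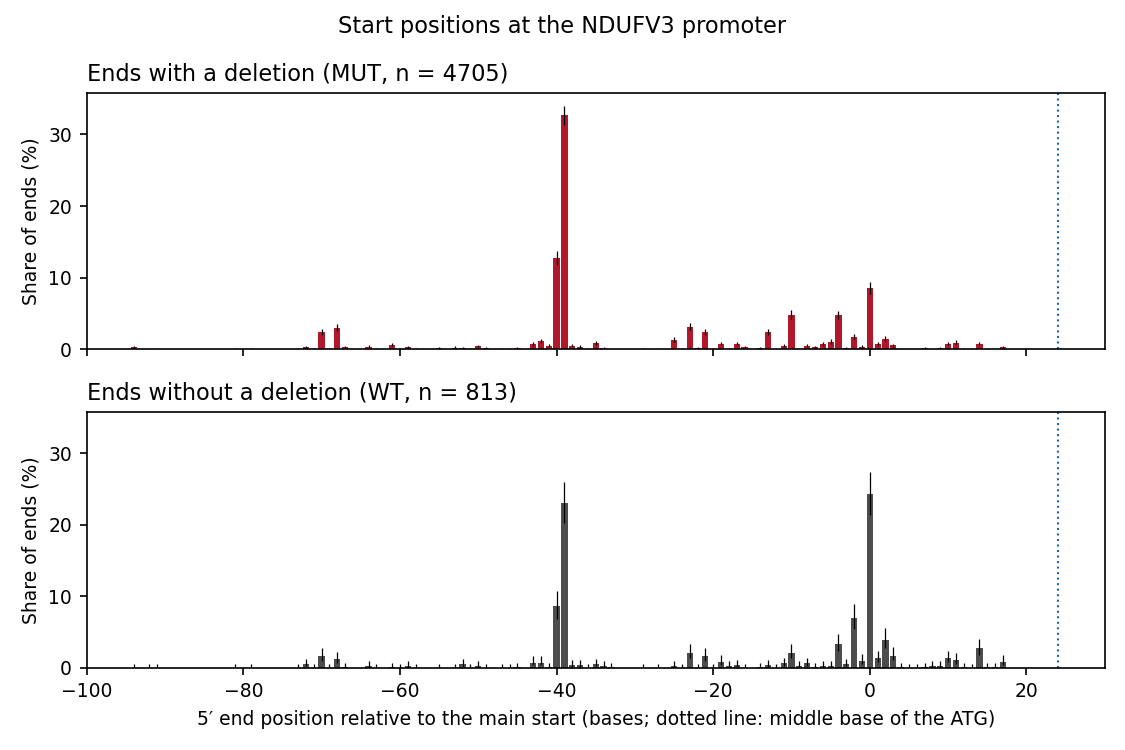
Share of 5′ ends in percent at each position relative to the main start, MUT ends above WT ends, with Wilson 95% intervals. The bar at -39 stands for 1537 MUT and 187 WT ends, and the bar at 0 reaches 8.54% in MUT and 24.2% in WT.

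An RNA that starts close to its deletion was almost never listed. Counted from the first base of the RNA to the last base before the deletion, the fewest bases kept by a MUT end were 6, the median was 50, and 18 of 4705 MUT ends kept fewer than 8. MUT ends with at least 8 kept bases were therefore set against WT ends whose positions would keep as many on that allele, and positions holding fewer than 10 ends were dropped. This left 4582 MUT ends of 267 deletions. The comparison was repeated with at least 20 kept bases (4150 ends, 251 deletions). Shares add to 100% within each set, so a start can hold a larger share because others hold less. Neither RNA amounts per allele nor genomic DNA counts were analysed, and output per allele was not measured.

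After matching, RNA from edited alleles started less often at and just around the main start and more often upstream. The main start held 8.75% of MUT ends and 24.2% of matched WT ends, a difference of −15.5 percentage points (−18.9 to −12.1) and a ratio of 0.361. With at least 20 kept bases it held 5.45% of MUT ends and 15.5% of WT ends, and the ratio was almost the same at 0.350 (difference −10.1 points, −14.8 to −5.37). The mean MUT start lay 8.35 bases upstream of the mean matched WT start (6.17 to 10.5), and 4.35 bases upstream with at least 20 kept bases (1.99 to 6.71). Of the 13 targets, 53.8% had a lower and 7.69% a higher main-start share with at least 8 kept bases. With at least 20 it could be measured in 10 targets and was lower in 30% and higher in 0%. When identical lines (same start and same deletion) were counted once, which gives each WT position 1 end, the difference at the NDUFV3 main start turned to 4.52 points (−0.45 to 9.49), so the result rests on how many lines each start has.

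Of 23 NDUFV3 positions with at least 5 WT ends, 4 were lower and 4 were higher in MUT than in matched WT ends. Over the 185 such positions of all targets, 15.1% were lower and 16.8% higher, so the count of called positions at NDUFV3 is near the background. The 4 lower positions, -2, 0, +2 and +3, lay in a span of 6 bases, and the intervals of -1 and +1 between them included 0. The start at -2, which coincides with the RefSeq gene start, held 1.77% of MUT ends and 7.16% of matched WT ends (−5.39 points, −7.25 to −3.53). The start at +2 held 1.53% in MUT and 3.87% in WT (−2.34 points, −3.72 to −0.96), and the start at +3 held 0.546% in MUT and 1.69% in WT (−1.14 points, −2.04 to −0.25). The 4 higher positions were -68, -40, -39 and -10. The starts at -68, +2, +3 and, in what follows, -25, -13, -5 and -4 were picked out after their values were seen, except that -68 belongs to a group described next.

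**Figure D3:**
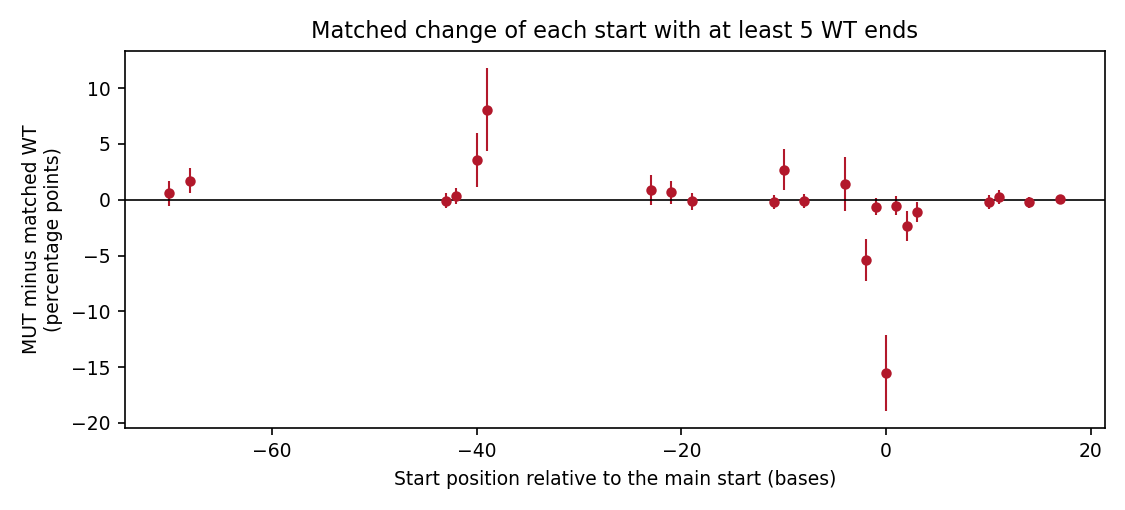
MUT minus matched WT share in percentage points for each start with at least 5 WT ends, by position relative to the main start, with 95% intervals and at least 8 kept bases. The lowest point is the main start at −15.5 points and the highest is -39 at 8.08 points.

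WT positions with at least 1% of the ends, joined when at most 5 bases apart, formed 6 start clusters, and 4 of these differed after matching. The share of clusters that differ at the other targets was not computed. Each of the 4 holds positions already called above, so this count is not a separate result about NDUFV3. The cluster from -4 to +3 held 18.8% of MUT ends and 43.3% of matched WT ends (−24.5 points, −29.8 to −19.1). The cluster at -40 and -39 held 46.6% of MUT ends and 35.0% of matched WT ends (11.6 points, 7.40 to 15.9). The single start at -10 held 4.93% in MUT and 2.23% in matched WT (2.71 points, 0.90 to 4.51, on 226 MUT and 17 WT ends). The farthest cluster, from -70 to -68, held 5.52% in MUT and 3.23% in matched WT (2.29 points, 0.60 to 3.97). At -23 to -21 the shares were 5.59% in MUT and 4.05% in WT, with an interval that included 0 (−0.14 to 3.22 points). At +10 to +14 the shares were 2.36% in MUT and 2.53% in WT (−0.17 points, −1.26 to 0.91). With deletions placed as deposited, 7.25% of MUT ends lacked the base at +10 and 25.3% the base at +14.

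The matching changed some of these comparisons. As tallied without it, +10 to +14 held 2.51% of MUT ends and 5.29% of WT ends, and the difference there was past 0. With at least 20 kept bases, the clusters at -4 to +3 (−14.7 points, −21.2 to −8.32) and at -10 (2.48 points, 0.26 to 4.70) kept their calls. The clusters at -40 and -39 (4.63 points, −1.08 to 10.3) and at -70 to -68 (1.69 points, −0.27 to 3.66) had intervals that included 0. In that window -40 and -39 held 51.3% of MUT ends and 46.7% of WT ends.

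The 3 far upstream clusters were also compared as shares of the far upstream ends alone, and no difference was detectable for them. Of ends 20 or more bases upstream of the main start, the cluster at -40 and -39 made up 68.8% in MUT and 72.4% in WT (−3.57 points, −8.26 to 1.56). Within that pair, the position -39 took 71.9% of MUT ends and 72.8% of WT ends (−0.84 points, −6.28 to 5.20). The cluster at -23 to -21 made up 8.44% in MUT and 8.45% in WT. The cluster at -70 to -68 made up 8.21% in MUT and 6.48% in WT (1.73 points, −1.46 to 4.09). These intervals allow differences of several points, and far upstream starts outside the 3 clusters were not compared in this way.

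The region just upstream of the main start differed by position. Starts from 5 to 19 bases upstream held 12.4% of MUT ends and 5.93% of matched WT ends (6.51 points, 4.29 to 8.72, a ratio of 2.10), and 13.3% of MUT ends and 7.11% of WT ends with at least 20 kept bases (6.19 points, 3.53 to 8.86). Some starts had very few WT ends. In this zone, the start at -13, a G after a T, had 114 MUT ends (2.42%) and 3 WT ends (0.369%). Outside it, farther upstream, the start at -25, also a G after a T, had 61 MUT ends (1.30%) and 2 WT ends (0.246%). Matched differences were 2.09 points at -13 (1.28 to 2.90) and 1.06 points at -25 (0.53 to 1.59). The start at -5 had 50 MUT and 2 WT ends (0.83 points, 0.24 to 1.42). With so few WT ends the ratios at these starts are poorly determined. By contrast, starts from -2 to +3 held 13.8% of MUT ends and 39.3% of matched WT ends (−25.5 points, −29.6 to −21.4), and the start at -4 held 4.89% in MUT and 3.49% in WT (1.40 points, −1.02 to 3.83). The zones from 5 to 19 bases upstream and from -2 to +3 were not planned and were drawn with the values known. The second leaves out -4, so the contrast between these zones is not an independent result. The intervals of the differences at -2 and at -4 did not overlap.

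Distance from start to deletion was examined in the same window. Starts 8 to 19 bases upstream of the deletion held 9.43% of MUT ends and 22.3% of matched WT ends (−12.9 points, −19.3 to −6.43). The share was also lower for starts 20 to 29 bases away, with 17.8% in MUT and 27.2% in WT (−9.39 points, −15.8 to −2.98). It was higher for starts 30 to 39 bases away, with 11.1% in MUT and 5.39% in WT, and for starts at 40 or more, with 61.7% in MUT and 45.2% in WT (16.5 points, 11.8 to 21.3). Because deletions varied in their upstream edge, the main start could be read at several distances, each with a different set of deletions. Where 8 to 11 bases were kept after it, it held 8.04% of MUT ends and 26.3% of WT ends. At 20 to 21 kept bases it held 5.58% in MUT and 25.2% in WT, and at 25 to 40 kept bases 10.5% in MUT and 24.2% in WT. It was lower in all 7 distance classes from 8 to 40 bases, with ratios from 0.222 to 0.475, and the ratios did not climb steadily with distance. Deletion 1 gave 696 of the 796 MUT ends in the class of 8 to 11 kept bases. Deletions 2 and 4 gave 413 and 338 of the 1039 in the class of 20 to 21. Distance was therefore not separated from the identity or length of the deletion.

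The 8 most frequent deletions differed among themselves. The main start was lower in 7 of the 8. Its share ran from 5.33% to 19.5% over the deletions, against 24.4 to 26.1% of WT ends in the windows of the same deletions. It was smallest with the 6-base deletion 4, where it held 18 of 338 MUT ends (5.33%, 3.39 to 8.26%) against 197 of 782 WT ends (25.2%), and with the 9-base deletion 2, where it held 23 of 413 MUT ends (5.57%) against the same WT share. Both begin at the same base as placed, and their main-start shares did not differ detectably (9-base minus 6-base 0.24 points, −3.21 to 3.52). The 15-base deletion 1 gave 57 of 696 MUT ends (8.19%) against 26.1% in WT, and the 14-base deletion 3 gave 37 of 340 (10.9%) against 25.5% in WT.

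The deletion whose main-start interval included 0 was the 1-base deletion 5, which removes the middle base of the start codon. There the main start held 43 of 221 MUT ends (19.5%, 14.8 to 25.2%) and 24.4% of WT ends (−4.98 points, −10.6 to 1.40). The 1-base deletion 7, which removes the first base of the start codon, left 14 of 136 MUT ends at the main start (10.3%, 6.23 to 16.5%) against 24.5% in WT (−14.2 points, −19.3 to −7.32). The main-start share of deletion 5 minus that of deletion 7, which lies beside it, was 9.16 points (1.36 to 16.2). Differences between deletions, here and in the paragraphs around this one, were not planned, and the pairs were picked with their values known. Deletion 5 has the largest main-start share of the printed deletions, and the interval does not allow for that choice. The 2-base deletion 6 had 12.7% in MUT and 24.4% in WT, and the 4-base deletion 8 had 12.1% in MUT and 24.4% in WT.

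**Figure D4:**
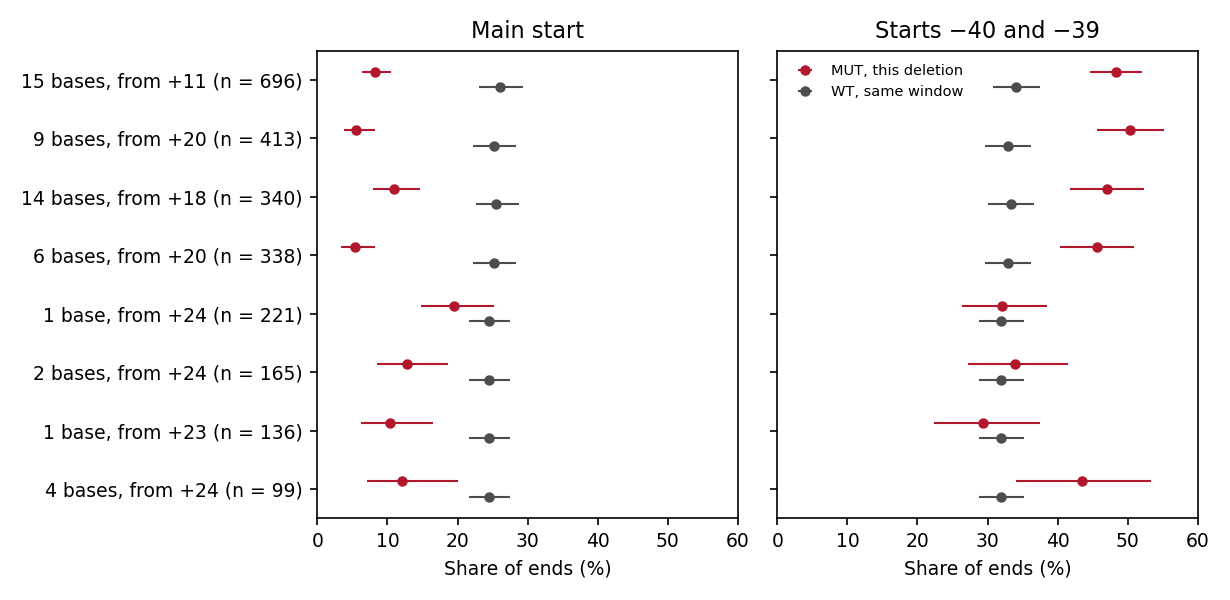
Share of ends in percent at the main start (left) and at -40 and -39 (right) for the 8 most frequent deletions, each labelled by its length and its first deleted base relative to the main start, with WT ends in the same window below each and Wilson 95% intervals. Main-start shares run from 5.33% to 19.5% in MUT and from 24.4% to 26.1% in WT.

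The upstream cluster at -40 and -39 was higher in 5 of the 8 deletions. These were the 5 of 4 or more bases, from 43.4% of MUT ends with deletion 8 (31.9% in WT) to 50.4% with deletion 2 (32.9% in WT). In the 3 deletions of 1 or 2 bases it held 32.1%, 33.9% and 29.4% of MUT ends with deletions 5, 6 and 7, against 31.9% of WT ends for each, and each difference had an interval that included 0. Those same 3 deletions had the start at -4 raised: it held 40 of 221 MUT ends with deletion 5 (18.1%, 13.6 to 23.7%), 21 of 165 with deletion 6 (12.7%) and 20 of 136 with deletion 7 (14.7%), against 27 of 806, 27 of 806 and 27 of 805 WT ends in their windows. With deletion 4 it held 12 of 338 MUT ends (3.55%), and the difference of deletion 4 minus deletion 5 was −14.7 points (−20.6 to −9.49). The start at -10 went the other way, with 27 of 338 MUT ends for deletion 4 (7.99%) and 3 of 219 for deletion 5 in the shared window (6.62 points, 3.07 to 10.1).

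All 270 deletions were also grouped by length. The classes include the deletions just described, so they are not a separate check of them. Deletions 5, 6 and 7 gave 221, 165 and 136 of the 779 matched MUT ends with 1 or 2 bases deleted. The main start was lower in each class: 13.1% in MUT and 24.5% in WT with 1 or 2 bases deleted (−11.4 points, −16.4 to −6.41), 6.92% in MUT and 25.03% in WT with 3 to 9 (−18.1 points, −21.5 to −14.7), and 8.26% in MUT and 22.7% in WT with 10 or more (−14.4 points, −18.2 to −10.6). The change with 3 to 9 bases minus that with 1 or 2 was −6.72 points (−12.8 to −0.69). For the whole cluster from -4 to +3 the contrast between classes was larger. It held 37.7% in MUT and 43.5% in WT with 1 or 2 bases (−5.77 points, −13.2 to 1.68), and 15.1% in MUT and 44.5% in WT with 3 to 9 bases (−29.3 points). The difference between these changes was −23.6 points (−32.3 to −14.9).

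Which start held a larger share depended on how many bases were missing. With 1 or 2 bases missing, the start at -4 held 15.8% of MUT ends and 3.36% of matched WT ends (12.4 points, 9.70 to 15.2). With 3 to 9 missing it held 3.77% in MUT and 3.43% in WT, and with 10 or more 1.60% in MUT and 3.45% in WT (−1.85 points, −3.21 to −0.50). The start at -10 held 7.82% in MUT and 2.16% in WT with 3 to 9 bases missing (5.66 points, 3.88 to 7.43), which exceeded the change with 1 or 2 bases by 5.97 points (3.67 to 8.28) and was not seen with 1 or 2 (−0.32 points, −1.79 to 1.16). With 10 or more bases, -10 held 3.43% in MUT and 2.24% in WT (1.18 points, −0.70 to 3.06). The cluster at -40 and -39 was higher with 3 to 9 bases (14.6 points, 10.3 to 18.8) and with 10 or more (12.2 points, 7.89 to 16.4), and with 1 or 2 its difference was 0.66 points (−3.25 to 4.57). With at least 20 kept bases it stayed higher with 3 to 9 (11.7 points, 6.39 to 16.9). With 10 or more its difference there was −0.63 points (−7.37 to 6.11), and that of the start at -4 was −1.18 points (−2.43 to 0.06). The other values by length are with at least 8 kept bases. The cluster at -70 to -68 was higher with 10 or more bases missing, at 7.56% in MUT and 3.55% in WT (4.01 points, 2.22 to 5.80), and its intervals included 0 in both shorter classes.

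Finer length classes, added after these values were seen, placed the steps more closely. The start at -4 gained 14.2 points with 1 base missing (11.1 to 17.4) and 9.98 points with 2 (7.89 to 12.1), and 2.47 points with 3 to 5 (−0.04 to 4.98). The start at -10 was higher with 3 to 5, 6 to 8, 9 and 10 to 13 bases missing, by 5.03 to 6.17 points, and its difference was 0.16 points with 14 or 15 (−1.48 to 1.80). The start at -13 had differences of 1.85 to 3.07 points with 6 to 8, 9, 10 to 13 and 14 or 15 bases missing. With 3 WT ends as its base it is not called higher. Longer deletions lie over a wider region and differ in more than length, and the part of position within these steps was not tested.

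**Figure D5:**
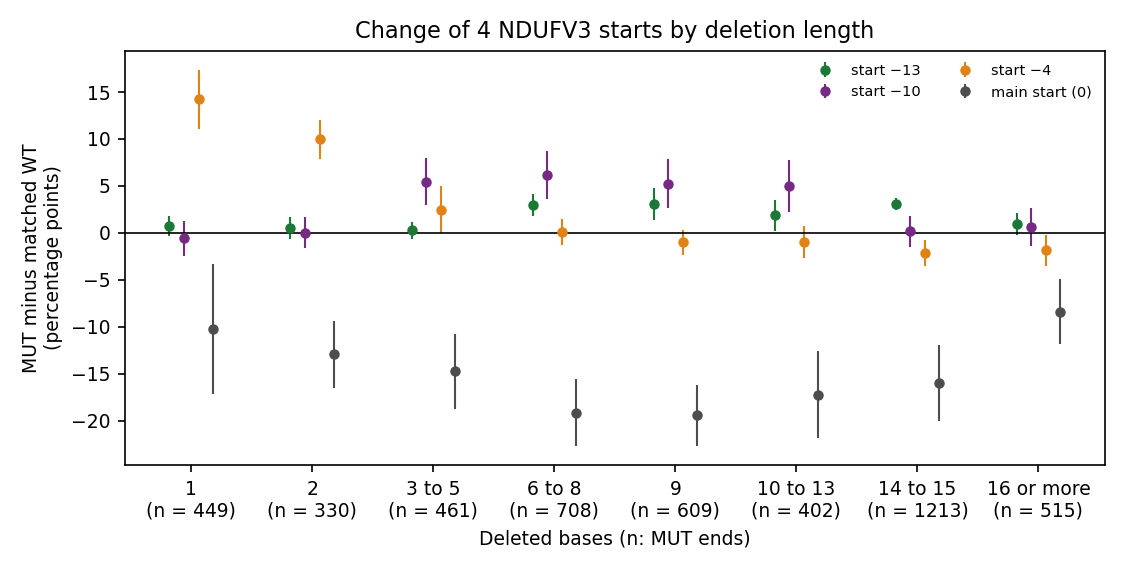
MUT minus matched WT share in percentage points at 4 starts by the number of deleted bases, short to long, with 95% intervals and the MUT ends per class. The start at -4 stands highest with 1 base deleted, at 14.2 points, the start at -10 is above 0 from 3 to 13 bases, and the main start is below 0 in every class.

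The guide RNAs were designed to motifs near transcription starts, per the labels' protocols. The letters CCGCCAT, found at the core of YY1 sites at many promoters, occur once in the 300 bases around the RefSeq start of NDUFV3, from 18 to 24 bases downstream of the main start, where they overlap the first 2 bases of the start codon. On both strands, 5.55% of 35116 promoters of that length hold these letters. The edited sequence no longer held CCGCCAT in 222 of 270 deletions and 4299 of 4705 MUT ends. With at least 8 kept bases, 4188 ends of 219 such deletions could be compared, and the main start held 8.57% of MUT ends and 24.2% of matched WT ends (−15.7 points, −19.1 to −12.2). Of the 48 deletions that still held it, 47 could be compared with 355 MUT ends, and the main start had 11.8% of MUT ends and 26.9% of matched WT ends (−15.1 points, −18.9 to −11.3). The main start was lower in both sets, and the difference between the sets was not tested. The same window holds CCAAT 2 times, GGGCGG 2 times and TATAAA not at all, on either strand, and 34.6%, 45.0% and 11.5% of promoters hold each of these. Such matches describe letters and not binding.

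Of the targets with at least 100 WT ends, NDUFV3 and C19orf43 had the smallest main-start shares in WT ends, at 24.2% and 26.0% (25.5 to 26.5%), which did not differ detectably (NDUFV3 minus C19orf43 −1.75 points, −4.61 to 1.36). C1orf63 bounded the range at 78.3%. NDUFV3 and C19orf43 changed in opposite directions with at least 8 kept bases. C19orf43 and IRF1 each took 8 positions to hold 80% of their WT ends, and HSF1 and LETMD1 took 7. The main-start share was lower at IRF1 and HSF1, as at NDUFV3, and the interval at LETMD1 included 0. At C19orf43, where the most deleted base lies 102 bases from the main start, the main start held 36.4% in MUT and 29.04% in matched WT (7.32 points, 3.21 to 11.4), and with at least 20 kept bases the difference was 3.18 points (−0.08 to 6.43). The change at NDUFV3 minus that at C19orf43 was −22.8 points (−28.1 to −17.5), and −13.3 points (−19.03 to −7.53) with at least 20 kept bases. The ratio of MUT to matched WT main-start share was 0.361 at NDUFV3. Among the other targets with a lower share it was 0.137 at IRF1, 0.369 at EDEM2, 0.544 at C1orf63, 0.719 at TMED9, 0.740 at HSF1 and 0.833 at RBM4, with 31 and 53 WT ends at IRF1 and EDEM2. In points and with at least 8 kept bases, the change at NDUFV3 minus that of the other target had an interval that included 0 for RBM4 (−2.87, −7.99 to 2.26), LETMD1 (0.30, −19.2 to 19.8), TMED9 (5.81, −5.01 to 16.6) and C1orf63 (8.21, −0.33 to 16.8). It was more negative than at HSF1 (−11.7, −16.7 to −6.62), ECI1 (−9.75, −17.2 to −2.28) and HIST1H1D (−13.4, −17.4 to −9.37). With at least 20 kept bases the interval still included 0 for RBM4 (−1.02, −7.17 to 5.12). In that window it was more negative than at C19orf43, LETMD1, ECI1, HIST1H1D, TMED9 and C1orf63, with differences from −8.01 to −13.3 points. In LETMD1, ECI1, TMED9 and C1orf63 the main start held 4.65% or less of the WT ends that such a window keeps, and could fall by no more than that.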

How the data were processed

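RNA 5′ ends of 13 edited promoters in HEK293T were deposited by the authors as a list with 1 line per end, holding the class (MUT or WT), other values for its position, the edges of the deletion, and the target name. Per the submitters' processing notes, STAR and hg38 were used, with no version or setting stated. The 5′ oligonucleotide carried 8 random bases, per the labels' protocols, and it is not stated whether lines are reads or molecules. The list pools 2 libraries without separating them. NDUFV3 had 5518 ends, which limits precision mainly through its 813 WT ends.

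Positions were read as counted from 0, since this put 51.9% of WT ends on a purine after a pyrimidine, against 5.29% as given, and are printed counted from 1. Deletion edges were read the same way and not realigned (so read, 50.4% of deletions fit equally well at a higher coordinate, 1.48% at a lower one). For each deletion, MUT ends with at least 8 (or 20) kept bases were compared with WT ends at positions that keep as many, and WT shares were averaged over deletions by MUT ends. Positions holding fewer than 10 ends were dropped, except in subsets by length or kept bases. The 95% intervals of matched differences combine the variance over deletions with the multinomial variance of WT ends; single shares have Wilson intervals and their differences Newcombe intervals. No p-values were computed. The method was run on simulated data in which ends were drawn independently and all deletions shared the same start preferences. Duplicate lines and spread between deletions were therefore not covered by it. Named were positions with at least 5% of MUT or WT ends, the top of each cluster, deletions with at least 2% of MUT ends, the 2 targets with the smallest WT main-start share, and targets that bound a range. Members, lists and settings were chosen with earlier results of these data known. Python 3.11.15, NumPy 2.4.6, pandas 2.3.3 and SciPy 1.17.1 were used, with GENCODE release 29. The STAP-seq reporter library was not used.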

Additional observations from a re-analysis of the deposited data

How the results depend on the processing

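The main-start share stayed lower with at least 12 or 20 kept bases, without matching, with deletions moved to the highest coordinate and without the most frequent deletion. Counting identical lines once, which by construction discards how often a start was used on an allele, reversed it: 4.52 points with at least 8 kept bases and 3.26 with at least 20. The cluster from -4 to +3 reversed too (1.45 and 2.82 points), as did the mean shift (−0.605 bases). In that setting 1 cluster differed at either distance, the share 8 to 19 bases upstream of the deletion changed by −3.76 points with an interval that included 0, 0 length classes and 0 targets were lower, and the main start held 1.85% of WT ends. With at least 20 kept bases 2 clusters differed in place of 4, and 3 targets were lower in place of 7. Without matching, 6 clusters differed in place of the 2 at that distance. The cluster at -40 and -39 with at least 20 kept bases became higher with deletions moved up (6.28 points) or without the most frequent deletion (6.36). Of the other 63 summary values, single differences kept their direction and call, and counts stayed within 1.5 times their value, with 6 to 9 lower targets and, without matching at 8 kept bases, 6 clusters in place of 4. No paired analysis was possible because the list does not separate the libraries, and leaving out a library was not run for the same reason. The 813 WT ends limit what can be said of starts with few WT ends.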
